A study of Homo sapiens with 4 samples.

Results

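The secreted serine proteases KLK2, KLK3 and KLK4 were followed by single-cell RNA sequencing (scRNA-seq) in LNCaP, a line of human prostate cancer, and lines derived from it. The members were chosen by gene symbol, and each of the symbols named exactly 1 row, so that 3 of the 33538 genes in the matrices are described. LNCaP is androgen-sensitive and comes from a lymph node metastasis, and enzalutamide (ENZ) is an antiandrogen drug. The 4 groups, with 1 library in each and therefore no replicates, were parental LNCaP given 0.1% DMSO for 48 h (LNCaP), the parental line given 10 µM ENZ for 48 h (LNCaP-ENZ48), and the ENZ-resistant lines RES-B and RES-A. These were kept in 10 µM ENZ. RES-A had been derived from LNCaP under rising ENZ and RES-B under RD-162, a related antagonist, each as 1 line, so that the line and the way it was made cannot be told apart. No resistant library without ENZ was analysed here, and all 4 cultures grew in medium with fetal bovine serum, which was not described as stripped of androgens.

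Kallikreins are trypsin-like or chymotrypsin-like enzymes that the luminal cells of the prostate make as inactive precursors and release into seminal fluid. KLK3 encodes prostate-specific antigen (PSA), which cleaves the semenogelins of the seminal clot and is the blood marker of prostate disease. KLK2 encodes human glandular kallikrein, which can activate the PSA precursor. KLK4 encodes a protease with broader tissue use, best known for its part in tooth enamel maturation. Androgens switch on transcription of these genes through nearby enhancers and promoters, and KLK3 is the standard readout of the androgen response.

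After the filters, 14727 cells remained, between 1782 and 4569 per library, and the libraries held between 50208831 and 60838227 unique molecular identifiers (UMIs), each standing for 1 captured RNA molecule. LNCaP cells were deeper, with a median of 27079.5 UMIs per cell against 12138 to 13676 in the others, and the filter for LNCaP also had a higher minimum. The luminal markers KRT8, KRT18, HOXB13 and FOLH1 were present in every library, each at over 1 CPM (UMIs scaled to a common library total). Summed markers of basal epithelium, endothelium and leukocytes stayed between 0 and 1.12 CPM, and those of fibroblasts between 1.57 and 3.59 CPM. The neuroendocrine sum of 3.39 to 4.34 CPM came nearly all from SYP, with CHGA at 0 in every library. Between 2 and 12 cell barcodes were shared by any pair of libraries.

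The genes lie together on chromosome 19 (GRCh38). KLK3 (ENSG00000142515) spans 50854915 to 50860764 and KLK2 (ENSG00000167751) 50861568 to 50880567 on the plus strand, and KLK4 (ENSG00000167749) spans 50906351 to 50911395 on the minus strand. KLK2 and KLK3 are close relatives, with 85.3% identical bases over their 783 aligned coding bases, whereas KLK4 shared 63.6% with KLK2 and 64.9% with KLK3. Of 2780 windows of 50 bases in the canonical KLK2 transcript, 11 also occurred in a KLK3 transcript, and none of the 451 windows in the last 500 bases did, which is the end that this 3′ chemistry reads. Reads that fit both genes equally well are not counted by the authors' software, so the levels of this pair are uncertain to that extent.

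The bases before each start are shown because KLK2 and KLK3 are alike there too. Sequences were taken from RefSeq (GRCh38.p14) and cover the 250 bases before the first transcribed base, 5′ to 3′ on the strand of the gene, at chr19:50873189-50873438 for KLK2, chr19:50854665-50854914 for KLK3, and chr19:50911396-50911645 and chr19:50910739-50910988 for the upstream and downstream starts of KLK4. The RefSeq start of KLK2 lies inside the longer span that GENCODE gives the gene. Capitals mark letters that matched a searched motif.
KLK2: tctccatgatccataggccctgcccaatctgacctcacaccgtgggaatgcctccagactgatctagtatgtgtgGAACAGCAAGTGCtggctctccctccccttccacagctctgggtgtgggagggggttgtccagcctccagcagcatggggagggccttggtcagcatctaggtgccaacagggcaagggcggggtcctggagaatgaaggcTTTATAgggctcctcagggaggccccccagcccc
KLK3: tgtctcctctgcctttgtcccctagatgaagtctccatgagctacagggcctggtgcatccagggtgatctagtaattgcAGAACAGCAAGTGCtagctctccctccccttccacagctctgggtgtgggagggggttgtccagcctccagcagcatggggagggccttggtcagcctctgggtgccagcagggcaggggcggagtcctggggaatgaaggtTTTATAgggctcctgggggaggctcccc
KLK4 start 1: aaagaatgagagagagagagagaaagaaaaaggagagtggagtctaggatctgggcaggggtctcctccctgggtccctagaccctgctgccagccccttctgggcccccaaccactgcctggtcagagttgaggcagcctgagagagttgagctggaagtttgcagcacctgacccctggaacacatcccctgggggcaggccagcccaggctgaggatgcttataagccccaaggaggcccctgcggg
KLK4 start 2: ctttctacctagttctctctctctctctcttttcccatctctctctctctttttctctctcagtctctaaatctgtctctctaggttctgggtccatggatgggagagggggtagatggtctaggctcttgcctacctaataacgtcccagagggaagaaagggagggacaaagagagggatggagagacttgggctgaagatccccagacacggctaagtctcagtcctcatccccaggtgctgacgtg
KLK2 and KLK3 had 205 of 238 aligned promoter bases in common (86.1%). Both held the same 13 letters, gaacagcaagtgc, beginning 175 bases before the KLK2 start and 169 before the KLK3 start, which match a relaxed steroid response element (GNACA and GTNC with 4 bases between). That element was found in 1.81% of 35116 promoters of this length, counting both strands. In KLK3 it overlapped the half-site AGAACA, found in 12.4% of promoters. Both also held TATAAA on the opposite strand (10.7% of promoters), 34 bases before the start of KLK2 and 28 before that of KLK3. Neither KLK4 window held any of the searched letters. The full element (AGAACA and TGTTCT with 3 bases between; 1 promoter of the table) and the forkhead core TGTTTAC (2.98%) were in none of the members' windows, on either strand. Such matches describe letters, not binding.

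To compare the levels, the UMIs of all cells that passed the filters were added up per library. UMIs count each captured molecule once and are not scaled to transcript length, so the genes can be set side by side as molecules captured, with capture per gene unknown. KLK3 was the most abundant of the members in LNCaP, at 718 CPM (95% counting interval 710.4 to 725), and was at 94.97 CPM after 48 h of ENZ, 0.0349 CPM in the RES-A line and 30.5 CPM in the RES-B line. KLK2 was at 319 CPM (314 to 324), 26.7, 0.0872 and 23.5 CPM in the same order, and KLK4 at 145 CPM (142 to 148), 35.2, 0.262 and 66.0 CPM. Each member was therefore highest in LNCaP and lowest in RES-A. The order of the middle libraries differed, because KLK2 and KLK3 were lower in RES-B than in LNCaP-ENZ48 and KLK4 was higher there. Within each gene the counting intervals of the libraries did not overlap, and the nearest were those of KLK2 in LNCaP-ENZ48 (25.4 to 28.0 CPM) and RES-B (22.2 to 24.8 CPM). In RES-A the whole library of 4569 cells gave 5 UMIs of KLK2, 2 of KLK3 and 15 of KLK4. The intervals of KLK2 (0.0283 to 0.204 CPM) and KLK3 (0.00422 to 0.126 CPM) overlapped there, as did those of KLK2 and KLK4 (0.1464 to 0.4315 CPM). All intervals cover counting error only, and none includes differences between cultures.

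**Figure D1:**
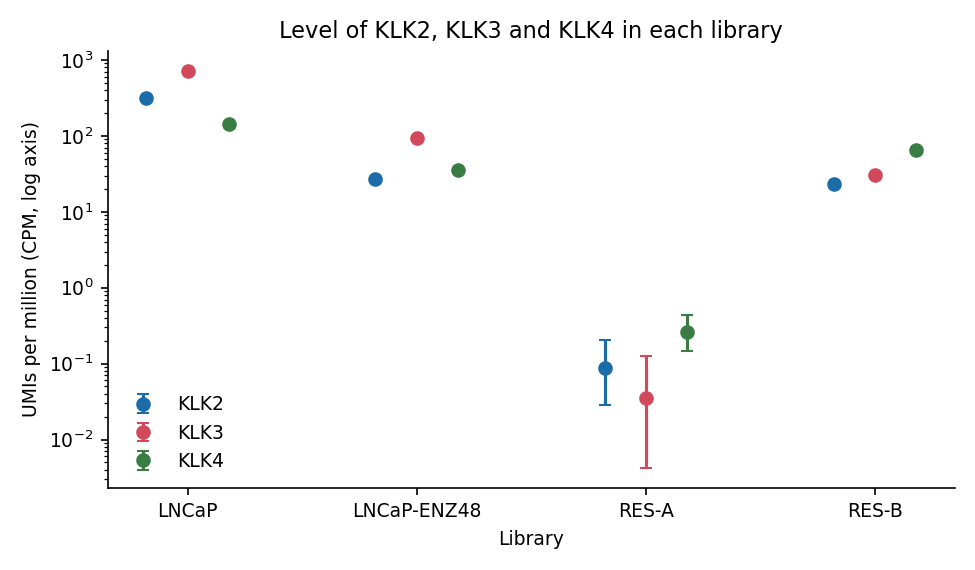
Levels of KLK2, KLK3 and KLK4 (CPM, log axis) in the 4 libraries, with points for the summed level and bars for exact Poisson 95% intervals, which are smaller than the points outside RES-A. Each gene is highest in LNCaP and lowest in RES-A, and KLK4 lies above the others in RES-B at 66.0 CPM.

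Short-term ENZ was set against LNCaP first. KLK2 was 11.95-fold lower in LNCaP-ENZ48 (log2 ratio -3.58, interval -3.65 to -3.51), KLK3 7.56-fold lower (-2.92, -2.96 to -2.88) and KLK4 4.12-fold lower (-2.04, -2.11 to -1.97). All 3 members were at least 2-fold lower, against 0.645% of the 7282 genes compared, those averaging 10 CPM or more over both libraries, and 0.192% were at least 2-fold higher. KLK2 had the lowest ratio of all these genes, KLK3 the 3rd lowest and KLK4 the 9th lowest. The median log2 ratio of all genes was -0.07.

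The resistant lines, which share the LNCaP library as their reference with LNCaP-ENZ48, lay further apart from each other. In RES-A, KLK3 had a log2 ratio to LNCaP of -14.33 (-17.37 to -12.48), KLK2 of -11.84 (-13.46 to -10.61) and KLK4 of -9.11 (-9.95 to -8.39). The width of these intervals follows from the few UMIs in RES-A, and KLK3 still had the lowest ratio of 7428 genes. In RES-B, KLK3 was 23.5-fold lower than in LNCaP (-4.56, -4.63 to -4.49), KLK2 13.6-fold lower (-3.76, -3.85 to -3.68) and KLK4 2.19-fold lower (-1.13, -1.19 to -1.08). All 3 members were at least 2-fold lower in both lines. Over all genes, 4.15% were lower and 3.74% higher by that much in RES-A, and 3.08% lower and 4.82% higher in RES-B, so that single genes past the fold were more common here than after 48 h. KLK4 in RES-B was the mildest member of any comparison with LNCaP, at rank 182 from the lowest of 7570 genes.

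RES-B was then compared with RES-A and both with LNCaP-ENZ48, which, like them, had been exposed to 10 µM ENZ. KLK3, KLK2 and KLK4 exceeded their RES-A levels in RES-B by log2 ratios of 9.77 (7.92 to 12.82), 8.07 (6.85 to 9.70) and 7.98 (7.26 to 8.82). All 3 were thus at least 2-fold higher, as were 3.37% of 7508 genes, while 1.7% were lower. In RES-A against LNCaP-ENZ48 all 3 were lower, by -11.41 for KLK3, -8.26 for KLK2 and -7.07 for KLK4, beside 3.37% of genes lower and 4.26% higher. Between RES-B and LNCaP-ENZ48 the members went apart. KLK3 was 3.12-fold lower in RES-B (-1.64, -1.72 to -1.56), KLK2 differed little (-0.18, -0.29 to -0.08) and KLK4 was 1.88-fold higher (0.91, 0.83 to 0.99). Only KLK3 passed 2-fold, in a comparison where 2.46% of genes were lower and 5.64% higher. The median ratio of all genes was 0.20 here and became -0.01 under TMM scaling, which takes KLK2 and KLK4 down by the same 0.21.

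The make-up of the summed kallikrein UMIs does not depend on how libraries are scaled. KLK3 supplied 60.8% of the 59320 UMIs in LNCaP (interval 60.4 to 61.1), with 27.0% from KLK2 and 12.3% from KLK4. KLK3 kept nearly the same share in LNCaP-ENZ48, at 60.5% of 9543 UMIs, and KLK2 was at 17.01% and KLK4 at 22.4%. In RES-B KLK4 came first, with 55.0% of 6309 UMIs from KLK4 (53.8 to 56.3), 25.4% from KLK3 and 19.6% from KLK2. RES-A also had most from KLK4, with 15 of 22 UMIs (68.2%, 45.1 to 86.1), but the interval of KLK2 there (7.82 to 45.4) overlapped it. KLK4 was therefore the smallest part in LNCaP and the largest in RES-B, whereas the order in RES-A is uncertain with 22 UMIs. The sum of the 3 genes was 1181 CPM in LNCaP, 157 after 48 h of ENZ, 120 in the RES-B line and 0.384 in the RES-A line.

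**Figure D2:**
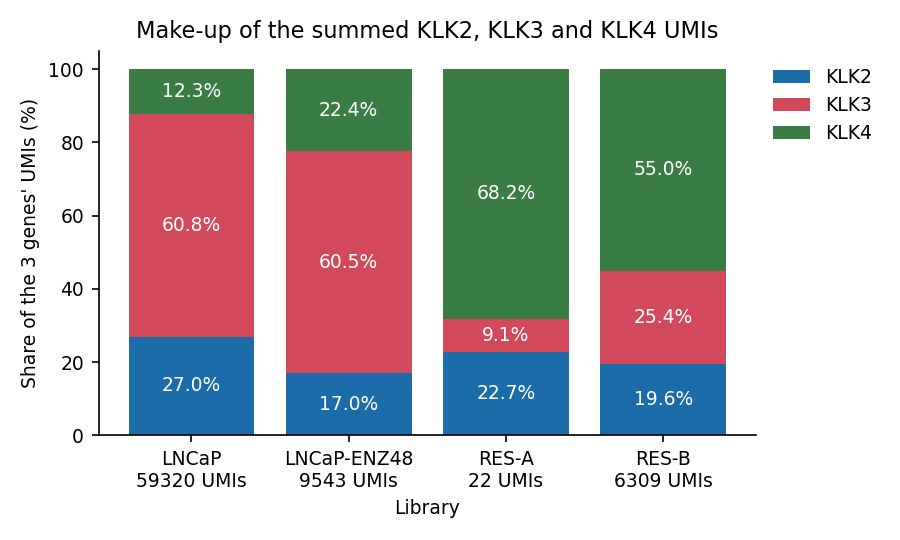
Share of KLK2, KLK3 and KLK4 in the sum of their UMIs (percent of the sum, stacked bars from 0 to 100) in each library, with the number of UMIs behind each bar. KLK4 grows from 12.3% in LNCaP to 55.0% in RES-B, and the RES-A bar rests on 22 UMIs.

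To describe how many cells had a detected UMI, each cell was randomly reduced to 5000 UMIs (thinned), so that the cells of the deeper LNCaP library had no advantage. The share of cells with at least 1 UMI was then taken. At a fixed depth this share falls whenever the mean level falls. It therefore cannot tell fewer expressing cells from less RNA in each cell. A KLK2 UMI was found in 54.7% of cells in LNCaP (52.3 to 57.0), 8.27% with 48 h of ENZ, 0.0657% in the RES-A line and 9.06% in the RES-B line, against 85.3%, 14.7%, 0.109% and 18.3% without thinning. KLK3 was found in 52.2% (49.8 to 54.5), 18.7%, 0.0219% and 9.31%, against 71.9%, 29.5%, 0.0438% and 17.2% without thinning. KLK4 was found in 43.7% (41.3 to 46.0), 16.0%, 0.109% and 25.2%, against 86.6%, 34.1%, 0.328% and 46.0% without thinning. In LNCaP the thinned intervals of KLK2 and KLK3 overlapped and that of KLK4 lay below both, whereas without thinning KLK3 had the lowest share. In RES-B, KLK4 was found in more cells than either of the others, with intervals apart (23.9 to 26.6 against 8.20 to 9.99 for KLK2 and 8.43 to 10.2 for KLK3). No cell type that should lack these genes was present, so UMIs from free RNA could not be measured within a library. The RES-A shares are the lowest seen.

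The spread among cells differed by member. In thinned LNCaP cells with the gene, KLK3 averaged 6.83 UMIs, KLK2 2.96 and KLK4 1.70, and the highest cells had 48, 22 and 10 UMIs. KLK3 thus had the widest range there. At full depth 28.1% of LNCaP cells had no KLK3 UMI, compared with 14.7% without KLK2 and 13.4% without KLK4, and yet the median cell had 4 KLK3 UMIs, the 90th percentile was at 65 and the highest cell at 239. The Fano factor, the variance over the mean of thinned counts, was 9.61 for KLK3, 3.87 for KLK2 and 1.56 for KLK4 in LNCaP, ranks 7, 25 and 165 of 7404 genes whose median was 1.02. In LNCaP-ENZ48 it was 5.34 for KLK3 and 3.81 for KLK2, still among the highest 30 of 7116 genes, and 1.22 for KLK4. This factor can rise with the mean, and the ranks were not matched for level. In LNCaP its order was that of the mean thinned counts (3.56 for KLK3, 1.62 for KLK2 and 0.742 for KLK4). No difference in spread apart from level is read from that order. In LNCaP-ENZ48 the mean of KLK2 (0.152) was below that of KLK4 (0.189), although its factor was higher. Without thinning, the 10% of cells richest in KLK3 held 46.5% of its UMIs in LNCaP, 81.7% in RES-B and 76.9% in LNCaP-ENZ48. For KLK2 these shares were 41.6%, 72.2% and 87.4%, and for KLK4 28.1%, 43.4% and 48.8%, so that in LNCaP-ENZ48 the share was highest for KLK2. Such a share is high wherever few cells have a UMI, as for KLK3 in RES-B (17.2% of cells) and KLK2 in LNCaP-ENZ48 (14.7%). LNCaP cells were also deeper, so no difference in concentration between libraries is read from it. In positive cells of LNCaP-ENZ48 and RES-B the mean of thinned KLK4 was 1.18 and 1.34 UMIs, near a single UMI, so no difference per positive cell is read from it.

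**Figure D3:**
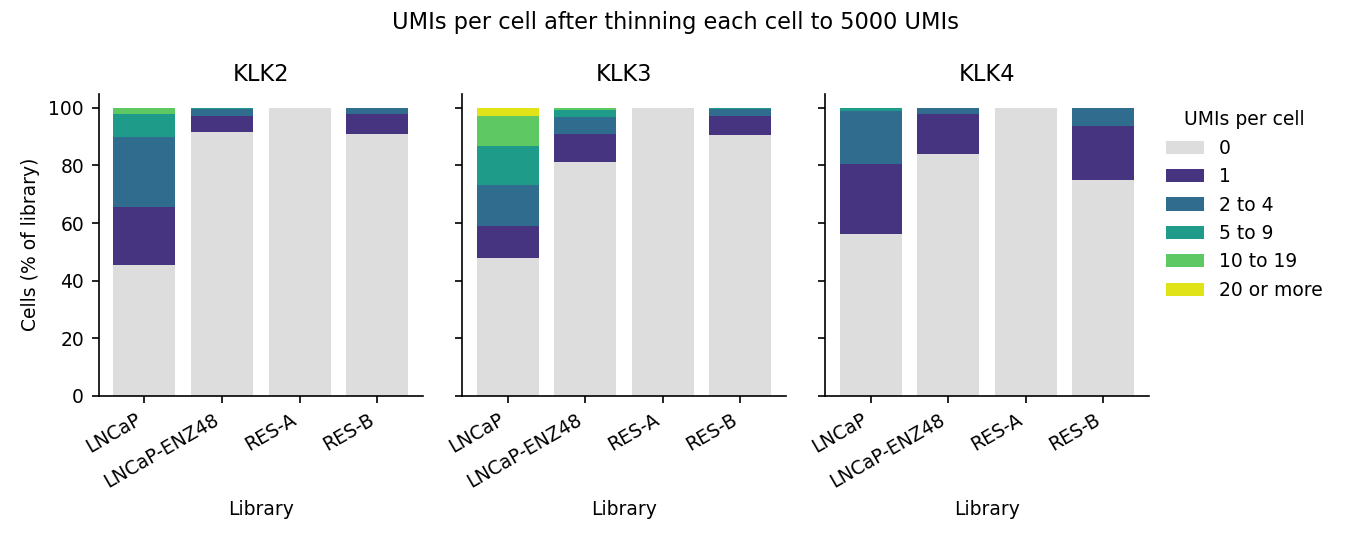
Distribution of UMIs per cell for KLK2, KLK3 and KLK4 after each cell was thinned to 5000 UMIs (percent of cells, stacked from 0 to 100), by library. KLK3 in LNCaP has the widest spread, from 47.8% of cells at 0 to a top class of 20 or more UMIs, and the RES-A bars are at 0 UMIs for nearly every cell.

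In RES-A the 22 member UMIs at full depth lay in 21 cells, 0.460% of the library (0.285 to 0.702), and 1 cell had 2 members. None of the 21 barcodes occurred in another library.

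Co-expression was examined in the same thinned cells. In LNCaP, 16.1% of cells (14.4 to 17.9) had all 3 members, 34.2% had 2, 33.7% had 1 and 15.9% had none. After 48 h of ENZ 66.4% had none and 1.16% (0.861 to 1.53) had all 3. RES-B was close to these values, with 66.1% at none and 1.53% (1.17 to 1.95) at all 3, but in other combinations. KLK3 alone was the most common single pattern in LNCaP-ENZ48, at 12.03% of cells, and KLK4 alone the most common in RES-B, at 18.1%. In RES-A 99.8% had none and 0 of 4569 cells had UMIs of 2 or more at this depth. That allows up to 0.0807% of cells with such UMIs and sets no limit on cells that express the genes, and 1 cell had 2 members at full depth.

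A cell with a given member was more likely to have each other member in LNCaP, LNCaP-ENZ48 and RES-B, for all 6 ordered pairs, except that 4 of 6 did so in LNCaP when cells were thinned to 2000 UMIs. In RES-B, KLK3 was found in 28.3% of the 368 cells with KLK2 (23.7 to 33.2) and in 7.42% of those without it (6.60 to 8.31). The same pair gave 38.7% (33.6 to 43.9) against 16.9% (15.8 to 18.1) in LNCaP-ENZ48 and 55.4% (52.3 to 58.6) against 48.3% (44.8 to 51.8) in LNCaP. KLK4 was found in 47.3% of RES-B cells with KLK2 and 23.02% without, and in 51.8% against 33.9% in LNCaP. The intervals were apart for every pair in LNCaP-ENZ48 and RES-B. In LNCaP those of KLK3 and KLK4 overlapped, with KLK4 in 45.9% of cells with KLK3 (42.7 to 49.2) and 41.2% of cells without it (37.9 to 44.6). The libraries differ in how many cells are positive, so the sizes of these gaps are given side by side and not compared.

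**Figure D4:**
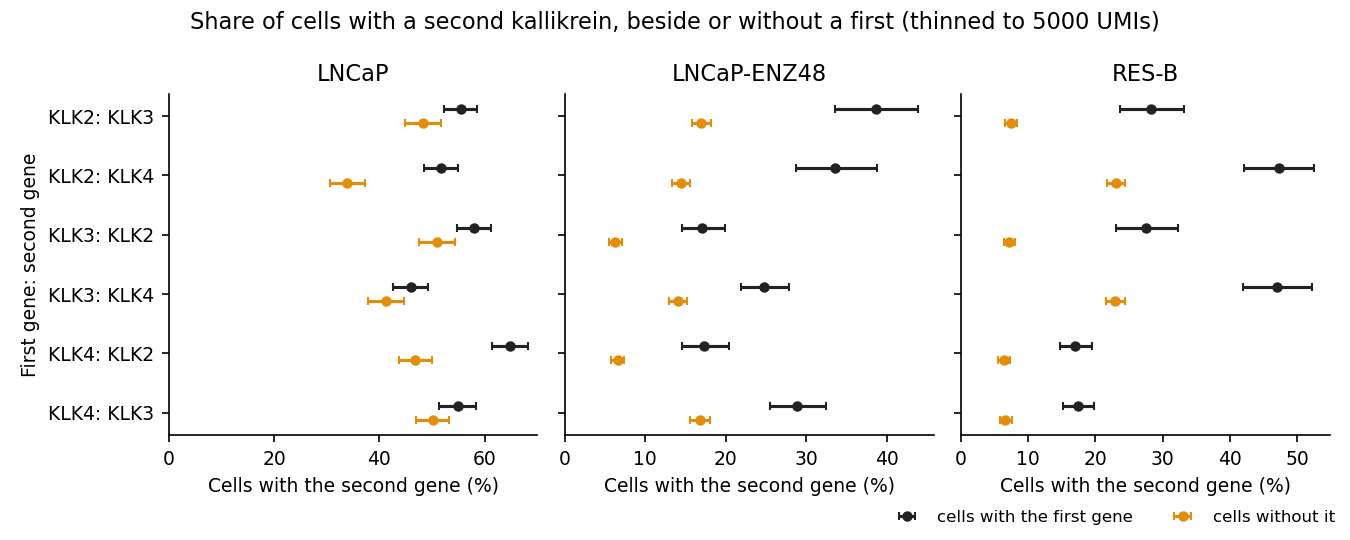
Share of cells with a second kallikrein (percent, exact binomial 95% intervals) among cells with a first kallikrein (dark points) and among cells without it (orange points), for the 6 ordered pairs in 3 libraries, thinned to 5000 UMIs. Dark points lie to the right in every pair, by least for KLK3 and KLK4 in LNCaP (45.9% against 41.2%). The axes of the panels differ in range.

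The amount of KLK3 was graded against the others. In RES-B the mean of KLK2 was 0.0891 thinned UMIs per cell without KLK3, 0.372 in cells with 1 to 4 KLK3 UMIs and 1.70 (1.18 to 2.38) in the 20 cells with 5 or more. KLK4 in those bins averaged 0.294, 0.718 and 1.75 UMIs. In LNCaP, KLK4 averaged 0.727, 0.769 and 0.744 UMIs over the same bins with overlapping intervals, and KLK2 was higher only in the top bin (1.47, 1.47 and 2.02). These bins pool all LNCaP cells, which are parted further below, where the KLK3 and KLK4 levels of the parts ran in opposite directions. Pearson's r over log-normalised values was 0.14 for KLK2 and KLK3 in the 1782 LNCaP cells, 0.25 for KLK2 and KLK4 and 0.03 for KLK3 and KLK4. In the 4315 LNCaP-ENZ48 cells these were 0.22, 0.17 and 0.14, and in the 4061 RES-B cells 0.27, 0.19 and 0.21. The cells of a library share its preparation, and the r of each member with a cell's UMIs before thinning lay between -0.11 and 0.03 in these libraries.

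KLK3 followed a different set of genes in LNCaP than KLK2 and KLK4 did. Among 4800 genes ranked in LNCaP, the highest r with KLK3 were those of RPL41 (0.39), RPS26 (0.37), NACA (0.37), AIDA (0.35) and RPL6 (0.34), which are ribosomal proteins, a ribosome-associated factor and an axin-interacting protein. All but AIDA are encoded on chromosome 12. The lowest were RPL34 (-0.33) and the histone gene H2AFZ (-0.33), both on chromosome 4, FTH1 (-0.29), SNHG8 (-0.28, chromosome 4) and ATP1B1 (-0.28). KLK2 in LNCaP had its highest r with PGK1 (0.25), a glycolytic enzyme, KLK4 (0.25), BTG1, C19orf48 and NEAT1, and KLK4 with KLK2, the androgen target TMPRSS2 (0.21), the nuclear RNAs NEAT1 and MALAT1, and BDP1. KLK4 was lowest with the proliferation genes TOP2A (-0.21), HMGB2, H2AFX, UBE2C and CENPF, and KLK2 with mitochondrially encoded genes such as MT-ATP6 (-0.21). In LNCaP-ENZ48 glycolytic genes were among the highest for every member: GAPDH with KLK3 (0.40) and KLK2 (0.25), PGK1 with KLK2 (0.25) and KLK3 (0.29), and LDHA with all 3. GAPDH is also encoded on chromosome 12, PGK1 on chromosome X and LDHA on chromosome 11. KLK2 was itself found in under 10% of thinned LNCaP-ENZ48 cells and so was not ranked there. The r of KLK2 and KLK3 in LNCaP-ENZ48 (0.22) was below those of GAPDH and PGK1 with either gene. KLK3 had the highest r with KLK4 among the genes ranked there (0.14), below the r of KLK4 with KLK2 (0.17). In RES-B, KLK2 and KLK3 were themselves found in under 10% of thinned cells and so were not among the genes ranked. Of those ranked there, KLK4 had the highest r with KLK2 (0.19) and KLK3 (0.21), and MALAT1 (0.16) and NEAT1 (0.15) had the highest with KLK4, below its r with either other member.

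The chromosome 12 genes were followed up after these values had been seen. Of 243 chromosome 12 genes ranked in LNCaP, 202 (83.1%) had a positive r with KLK3, compared with 39.2% of all 4797 genes ranked, members left out, and the share was 82.9% without ribosomal protein genes. On chromosome 4, 48 of 178 (27.0%) were positive. For KLK2, 28.4% of the chromosome 12 genes were positive against 35.1% of all genes, and for KLK4 30.5% against 43.7%, so that neither had the excess seen for KLK3. The part of a cell's UMIs that came from chromosome 12, members left out, had 2 maxima over LNCaP cells, and its r with KLK3 was 0.60, the highest of 23 chromosomes, while chromosome 4 had the lowest at -0.41. LNCaP cells were ordered by that share and cut into 4 bins of equal size. In the lowest bin (mean share 4.69%), 15.5% of cells had a KLK3 UMI (12.2 to 19.2). In the next bins 27.0%, 83.9% and 82.5% had one. KLK2 was found in 52.7%, 61.1%, 49.8% and 55.1% of the same bins and KLK4 in 46.6%, 51.5%, 40.8% and 35.7%. The step was therefore in KLK3, and the others showed none in that direction.

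LNCaP-ENZ48 repeated the pattern in its own cells, with KLK3 in 2.97%, 8.16%, 28.4% and 35.3% of the bins. Cells of both libraries were then parted at their common median share of 5.7%. In LNCaP, KLK3 was at 1285 CPM above it and 183 CPM below it, and after 48 h of ENZ at 167 and 22.1 CPM. The log2 ratio between the libraries was -2.95 (-2.99 to -2.91) above and -3.05 (-3.17 to -2.94) below, with overlapping intervals. For KLK2 it was -3.54 above and -3.59 below. For KLK4 it was -1.68 (-1.79 to -1.58) above and -2.30 (-2.39 to -2.20) below, so that the KLK4 ratio differed between the parts beyond counting error. In LNCaP, KLK2 and KLK4 were lower above the median than below it, at 266 against 368 CPM and 109.7 against 178 CPM. The share of LNCaP cells above the median was 48.6% and that of LNCaP-ENZ48 50.4%. Median UMIs per LNCaP cell were 27231 above and 26918 below, and 69.3% and 65.4% were called G1. Within the parts, r of KLK3 and KLK4 in LNCaP was 0.17 above and 0.15 below, against 0.03 over all cells. For KLK2 and KLK3 it was 0.30 above and 0.18 below, against 0.14 over all cells. For KLK2 and KLK4 it was 0.18 above and 0.29 below, against 0.25. Of the resistant cells, 99.6% (RES-A) and 87.1% (RES-B) were above the same value, and the RES-B levels of KLK3 had overlapping intervals (28.2 to 31.4 CPM above, 30.9 to 40.0 CPM below). What sets the chromosome 12 share was not tested.

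**Figure D5:**
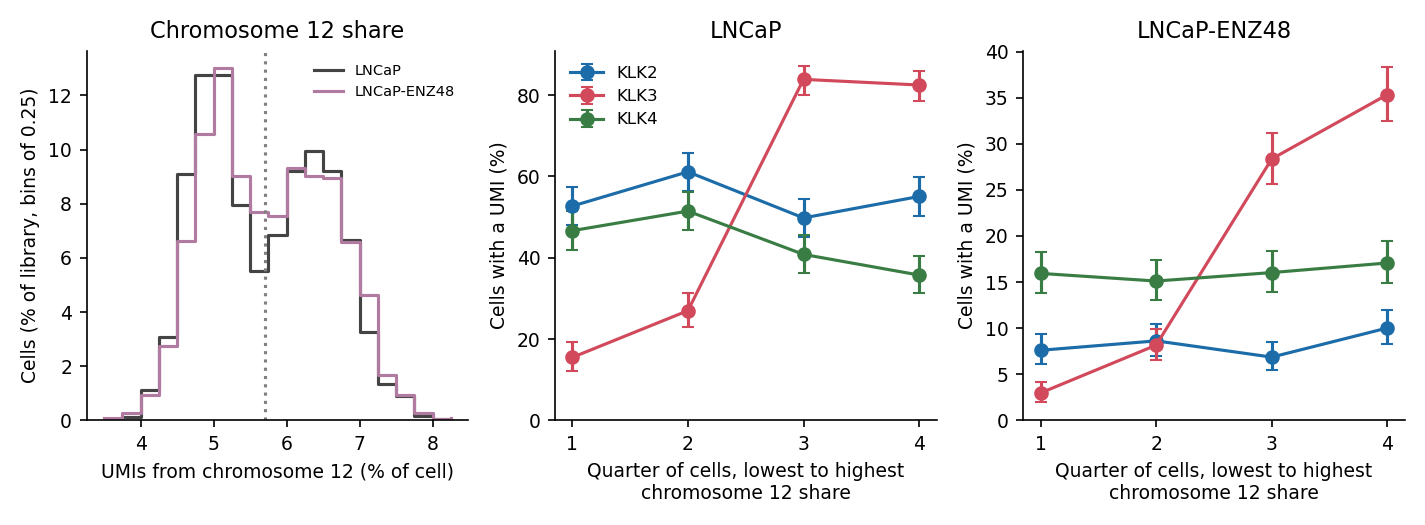
Left, distribution of the share of a cell's UMIs from chromosome 12 in LNCaP and LNCaP-ENZ48 cells (percent of cells in bins of 0.25), with the common median of 5.7% dotted. Middle and right, share of cells with a UMI of each kallikrein (percent, exact binomial 95% intervals, thinned to 5000 UMIs) in 4 bins of equal cell number from the lowest to the highest share, where KLK3 steps from 27.0% to 83.9% between the middle bins of LNCaP. The vertical axes of the panels differ in range.

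Cell cycle phase was called from S and G2/M genes, and about 9.71% to 11.3% of cells lay within 0.02 of a cut. In LNCaP all 3 members were lower in G2/M than in G1, KLK3 at 296 against 898 CPM, KLK2 at 177 against 358 and KLK4 at 64.4 against 171. In LNCaP-ENZ48 the same order held, with KLK3 at 46.1 against 107 CPM, KLK2 at 16.2 against 30.3 and KLK4 at 26.1 against 37.5. RES-B differed by member. There KLK4 was lower in G2/M (43.0 against 74.2 CPM), whereas KLK2 (25.1 against 23.5) and KLK3 (33.2 against 29.8) had overlapping intervals.

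The other genes with a kallikrein name were nearly silent. Of 13 such genes in the matrices, with plasma kallikrein (KLKB1) among them, only KLK15, the neighbour of KLK3, reached 1 CPM in any library. KLK15 was at 2.87 CPM in LNCaP, 2.40 in RES-B, 0.838 after 48 h of ENZ and 0.157 in RES-A. It was lower than in LNCaP by log2 ratios of -1.78 (-2.27 to -1.30) in LNCaP-ENZ48 and -4.19 in RES-A, and in RES-B its interval included 0 (-0.62 to 0.10). KLK9, KLK13 and KLK14 had 0 UMIs everywhere.

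Within 500 kb of the members, 8 other genes of 66 in the matrices reached 10 CPM in a library. C19orf48, which GENCODE 44 lists as a transcribed pseudogene on the minus strand (50797687 to 50804929), was the only one at least 2-fold lower than in LNCaP, at 421 CPM in LNCaP and then 152 (LNCaP-ENZ48), 80.9 (RES-A) and 163 CPM (RES-B). Sets of 4 CPM values from here on keep that order. The other 7 (NR1H2, EMC10, JOSD2, C19orf81, CLEC11A, CTU1 and ETFB) had log2 ratios to LNCaP between -0.47 and 0.56, and the median of the 8 was -0.04, 0.28 and 0.31 in the drug-treated libraries in that order. The lower levels were thus found in the members and C19orf48 among the expressed genes of this stretch.

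Several factors that bind prostate enhancers were measured beside the kallikreins. The pioneer factor FOXA1 (156, 146, 98.6 and 123 CPM), HOXB13 (135, 157, 92.0 and 92.4) and GATA2 (104, 153, 89.5 and 80.1) stayed within 2-fold of LNCaP. SPDEF, an epithelial ETS factor, was at 83.6, 45.8, 35.2 and 58.7 CPM and passed 2-fold in RES-A. GRHL2 was within 2-fold throughout.

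Of 18 other androgen-responsive genes that the study took from other work, 11 had the level needed for each comparison with LNCaP. In LNCaP-ENZ48, 3 of these were at least 2-fold lower, C1orf116 and HERC3 among them. Each resistant line had 4, with ABCC4, ZBTB10 and HERC3 among them. Over all genes, 0.645%, 4.15% and 3.08% were lower by that much in LNCaP-ENZ48, RES-A and RES-B. C1orf116 was at 23.3, 6.28, 18.7 and 20.3 CPM. Of the listed genes at the level needed for a comparison, none was at least 2-fold higher than in LNCaP. MAF, a transcription factor below that level, was at 0.119, 0.0986, 2.37 and 0.533 CPM, highest in RES-A. FKBP5, a chaperone of steroid receptors, was at 19.8, 10.8, 17.9 and 15.5 CPM, and ACSL3, a fatty acid ligase, at 78.0, 51.3, 98.8 and 66.2 CPM.

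Among partners of kallikrein proteases, TMPRSS2, a surface protease and androgen target, was the only gene at least 2-fold lower than LNCaP in each comparison, at 106, 25.5, 7.50 and 19.3 CPM. Its counterparts HPN and ST14, which encode hepsin and matriptase, were within 2-fold of LNCaP. So were SPINT1 and SPINT2, which encode inhibitors of these surface proteases, with SPINT2 at 376, 429, 290.3 and 344 CPM. IGFBP3, a substrate of PSA, was at 0.976, 1.31, 8.86 and 25.9 CPM, and reached the level needed for a comparison with LNCaP in RES-B alone. Luminal products went in several directions. SLC45A3, an androgen-driven membrane protein, was at 36.2, 6.99, 0.663 and 0.609 CPM and so was equally low in both resistant lines, unlike the kallikreins. STEAP2 (267, 279, 92.9 and 98.6 CPM) was lower in the resistant lines only, and FOLH1, which encodes prostate-specific membrane antigen, was highest in LNCaP-ENZ48 (331, 533, 241 and 184 CPM). PLA2G2A, a secreted phospholipase, was at 2.93, 8.04, 12.6 and 129 CPM.

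Across the 4 libraries, the genes most like each member were sought among 2909 genes by the distance between log2(CPM + 1) profiles around their means. KLK3 and KLK2 were nearest to each other, at a distance of 1.44. KLK2 was followed by KLK4 (1.84), PEG3 (2.69), KCNN2 and PRUNE2, and KLK3 by PEG3 (1.89), KLK4 (2.68), TFPI and SYT4. KLK4 had PRUNE2 (1.30) and SYT4 (1.76) nearer than KLK2, then ABHD2 and TMEM205. With 4 points per profile, this ranks genes and does no more.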

How the data were processed

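Single-cell libraries were made with a 3′ UMI chemistry from sorted living cells. The authors processed the reads with Cell Ranger 3.0.2 against GRCh38 and deposited a matrix of raw counts (UMIs per gene and cell barcode) for each library. Cells were kept by the ranges the study states for each library: 3000 to 7000 genes, 16000 to 50000 UMIs and under 15% mitochondrial UMIs in LNCaP, and 1500 to 5000 genes, 5000 to 25000 UMIs and under 15%, 17% and 20% in LNCaP-ENZ48, RES-A and RES-B. Doublets were not removed. Counts were summed over kept cells and divided by the library total (CPM). With 1 library per group no test across samples was possible, and intervals are exact 95% Poisson, Clopper-Pearson or conditional binomial intervals that cover counting error only.

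Ratios were ranked among genes that averaged 10 CPM or more over the compared libraries, and a fold of 2 counted as lower or higher. Cells were thinned to 5000 UMIs with a fixed seed. Correlations used log-normalised thinned counts of genes found in at least 10% of cells. Phases were called with Seurat 5.3.0, and other scaling with edgeR 4.0.16 and DESeq2 1.42.0 factors, in R 4.3.3 and Python 3.11.15. Steps were tested on simulated data. Genes named beyond the members are those of the lists, the 5 highest and lowest correlated, the 5 most alike and the expressed neighbours. The members and lists were chosen with earlier results of these data known, and the chromosome 12 comparison after the correlations had been seen. Positions of neighbours came from GENCODE 44, in which 33113 of 33538 gene IDs were found, and promoters from RefSeq. Protein sequences were not analysed here, and some genes of the lists are not reported here.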

Additional observations from a re-analysis of the deposited data

Results flagged for a closer look

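SPON2, which encodes a secreted matrix protein of luminal cells, moved in opposite directions in the resistant lines, with a log2 ratio to LNCaP of 1.05 for RES-B and -1.89 for RES-A. With 1 library per line, the difference was not tested.

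The 576 LNCaP barcodes that the filters removed also held kallikrein UMIs, at 353 CPM for KLK2 (339 to 368) and 857 CPM for KLK3 (835 to 880.3), against 319 and 718 CPM in the cells kept. KLK4 was at 146 CPM there (137 to 156), and its interval included the 145 CPM of the kept cells.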

How the results depend on the processing

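Ratios were recomputed with other scalings (TMM, DESeq2 size factors, totals without mitochondrial genes), other filters and sums of thinned cells. They were also recomputed in cells called G1 and without the 5% of cells that had the most UMIs. For LNCaP-ENZ48 against LNCaP, the parts above and below the common chromosome 12 median were used too. The counts of members past 2-fold stayed as they were in 100 of 100 recomputed counts. Of 150 single ratios 34 moved beyond their interval and 0 changed sign. TMM scaling shifted the median log2 ratio of all genes by 0.11 in LNCaP-ENZ48 against LNCaP, -0.11 in RES-B against LNCaP, -0.16 in RES-A against LNCaP-ENZ48 and -0.21 in RES-B against LNCaP-ENZ48. The weak r of KLK3 and KLK4 in LNCaP changed sign without thinning (-0.0095), at 2000 UMIs per cell (-0.019) and in G1 cells (-0.026), and the cause was not tested. At 2000 UMIs per cell, 4 of 6 ordered pairs in LNCaP had a higher share of the second member beside the first. From thinned sums, KLK3 made up 60.2% in LNCaP and KLK2 17.9% in LNCaP-ENZ48. With a minimum of 1 CPM, 1 other kallikrein was lower in LNCaP-ENZ48 and in RES-A, luminal products were lower in 4, 6 and 4 genes (LNCaP-ENZ48, RES-A, RES-B) and higher in 1 in each of the first pair, and 1 partner and 1 androgen-responsive gene (MAF) were higher in RES-A, since more genes were compared. At 50 CPM, where fewer were, luminal products were lower in 0 (LNCaP-ENZ48) and 1 (RES-B), and 0 partners were higher in RES-B. Depth limits RES-A most, where ratios rest on 22 UMIs. No paired analysis was possible because the labels carry no replicate numbers and each group has 1 library, which also leaves no replicate to leave out.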

Other observations

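C19orf48, between KLK15 and the nearest expressed neighbours, was among the 5 genes most correlated with KLK2 in LNCaP (r 0.24) and in RES-B (0.12), and with KLK3 in RES-B (0.11), but its r with KLK3 in LNCaP was -0.13. The share of a cell's UMIs from chromosome 6 had the second highest r with KLK3 in LNCaP (0.27) and LNCaP-ENZ48 (0.17), after chromosome 12. These r are descriptions over cells of 1 library each.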
